A study of Mus musculus with 12 samples.

Results

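Control-only regions near genes are stretches of the mouse genome where BMAL1 was called in control fibroblasts and not in senescent ones. They were chosen by the peak calls themselves. Overlapping peaks (1 bp or more) of 6 BMAL1-ChIP-seq libraries were joined into regions, and a region was kept when it held a peak in at least 2 of 3 control libraries, a peak in 0 of 3 senescent libraries, and a midpoint within 50000 bp of a protein-coding start site. Of 16818 merged regions, 13171 lay within that distance and 595 (4.52%) met the rule. At any distance 986 of 16818 regions (5.86%) were control-only, so 391 lay farther away. The mirror rule gave 1267 senescent-only regions within 50000 bp (9.62%). Because the calls chose the regions, the absence of senescent peaks is the definition of the set and not a result.

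The cells were primary mouse adult fibroblasts (MAFs) grown at 3% oxygen from ears of adult female C57BL6/J mice. Control MAFs were sham irradiated. Senescent MAFs received 20 Gy of X-rays and were then cultured for additional weeks. No other genotype or allele was used. All cells were given 100 nM dexamethasone, a glucocorticoid that sets cultured clocks to a common phase, for 2 h and were fixed 12 h later, so the controls carried this hormone treatment too. There were 3 libraries per group, each with a peak list of its own, and the labels do not say whether replicates came from separate animals. The control lists held 2794, 3349 and 10601 peaks and the senescent lists 4220, 9805 and 5053. The lists hold no reads, so depth is unknown and a missing peak is a peak that was not called.

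BMAL1 acts as a dimer with CLOCK in the circadian clock and is known for binding the E-box CACGTG in promoters and enhancers of clock genes. AP-1 is a family of Jun and Fos dimers that bind TGACTCA or TGAGTCA and respond to growth factors and stress. RUNX proteins bind TGTGGTT together with their partner CBFB and direct bone, cartilage and blood cell fates. In fibroblasts, enhancers marked by AP-1, TEAD and RUNX sites control matrix and cytoskeletal genes.

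Stretches of 100 bases around the motif of well-ranked regions are shown first, because the results below turn on how often such letters sit under a peak. They are the 2 best-ranked control-only regions with each motif that lay outside exons, read from the forward strand of mm10 (GRCm38), with the motif in capitals. The Wwp2 sequence (chr8:107522390-107522489, intron of Wwp2) and the Dbi sequence (chr1:120115840-120115939, intron of Dbi) hold the E-box. The Cmah sequence (chr13:24342270-24342369, intron of Cmah) and the Tgtp1 sequence (chr11:48994113-48994212, intron of the overlapping Olfr56) hold the RUNX motif, which lies on the reverse strand and therefore reads AACCACA here. The Acta2 sequence (chr19:34265810-34265909) and the Degs1 sequence (chr1:182256202-182256301) hold the AP-1 motif, and both are intergenic.
Wwp2, E-box: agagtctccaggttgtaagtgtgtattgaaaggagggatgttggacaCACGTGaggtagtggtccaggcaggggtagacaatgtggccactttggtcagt
Dbi, E-box: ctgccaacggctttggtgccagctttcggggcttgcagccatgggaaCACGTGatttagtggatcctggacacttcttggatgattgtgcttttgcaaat
Cmah, RUNX: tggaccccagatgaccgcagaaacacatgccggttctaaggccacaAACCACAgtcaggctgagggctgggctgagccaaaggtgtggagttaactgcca
Tgtp1, RUNX: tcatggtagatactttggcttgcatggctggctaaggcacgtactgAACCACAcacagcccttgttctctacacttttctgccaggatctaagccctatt
Acta2, AP-1: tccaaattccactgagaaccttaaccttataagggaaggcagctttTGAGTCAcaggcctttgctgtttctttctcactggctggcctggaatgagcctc
Degs1, AP-1: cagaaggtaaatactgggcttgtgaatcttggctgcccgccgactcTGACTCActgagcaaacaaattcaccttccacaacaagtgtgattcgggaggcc

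The motif lay 2 bp from the centre of the best-ranked peak at Acta2 and 4 bp at Tgtp1. It lay 23 bp away at Wwp2, 53 bp at Degs1, 83 bp at Cmah and 94 bp at Dbi.

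Control-only regions ranked below the other regions near genes in control replicates 1 and 2 and above them in replicate 3. Replicate 3 called nearly all of the control-only regions. Peaks were ranked within each list by their score, with the best peak at 0% and the last at 100%, and tied peaks shared a mean rank. A percent rank depends on the length of its list (2794, 3349 and 10601 peaks), so percents are not alike between libraries. Of the 595 regions, 156 were called in all 3 control libraries, 279 in replicates 2 and 3, 150 in replicates 1 and 3, and 10 in replicates 1 and 2. Replicate 3, the longest list, therefore took part in 585 of them. The median rank was 61.4% among the 316 regions called in replicate 1, 63.8% among the 445 called in replicate 2 and 33.5% among the 585 called in replicate 3. The other regions near genes stood at 44.1%, 42.4% and 49.4% in the same lists. Control-only regions thus ranked below these in replicates 1 and 2 and above them in replicate 3. The call rule bears on this contrast, which is a description only. In replicate 3 the others include 3305 regions called in that library alone. In replicates 1 and 2 the others (1651 and 1989 regions) include the 953 called in all 6 libraries. Regions called in all 6 libraries stood at 25.2%, 20.3% and 6.78%.

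**Figure D1:**
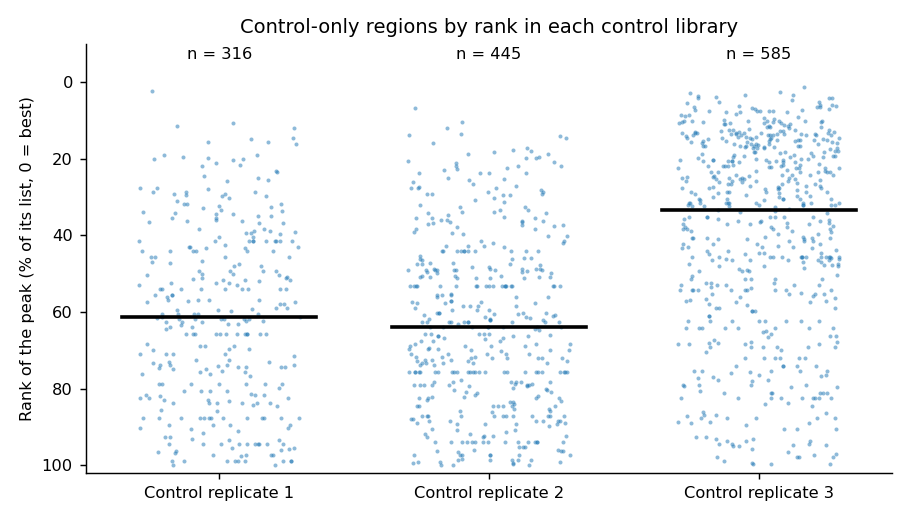
Each point is a control-only region and its height is the rank of its peak in one control library, as a percent of that list with the best peak at the top. The black line is the median, which lies at 61.4%, 63.8% and 33.5% in replicates 1, 2 and 3, and few points reach the top of any list.

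The bounds of the rule cut through large groups of regions. Just outside it, 3561 regions within 50000 bp were called in 1 control library and no senescent library, and 3305 of these were in control replicate 3. A further 351 regions had at least 2 control calls and exactly 1 senescent call, which was in senescent replicate 2, the longest senescent list, for 278 of them. The farthest region kept lay 49909 bp from a start and the nearest one left out lay 50206 bp away. A senescent peak lay within 1000 bp of 70 of the 595 regions (11.8%) and within 10000 bp of 199 (33.4%), and the median gap was 24811 bp. For the 3561 regions called in a single control library these shares were 18.8% and 40.5%, and the median gap was 18354 bp. Without control replicate 3 the same rule gave 173 regions, and without control replicate 2 it gave 307.

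Control-only regions lay mostly away from promoters. The median distance to the nearest start was 11452 bp, against 2200 bp for all 13171 regions near genes. Within 1000 bp of a start, here called a promoter, lay 99 regions (16.6%, 95% Wilson interval 13.9% to 19.8%), against 43.3% of all regions and 27.2% of regions called in a single control library. Without senescent replicate 2 the share was 26.1%, against 42.2% of the other regions, and with lists cut to equal length it was 27.0% against 47.5%. Wilson intervals here cover counting error only. Introns held 311 regions (52.3%), intergenic sequence 248 (41.7%), untranslated exons 31 (5.21%) and coding exons 5 (0.84%). For 272 of the 311 intronic regions, the host gene was also the gene with the nearest start. The sequence under the peaks was poorer in G and C, with a median of 46.0% in the central 200 bp against 53.0% over all regions, and 14.3% of the windows had no CpG against 6.50%. Regions called in a single control library were close to these values, with a median of 46.5% and no CpG in 13.7%.

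The RUNX motif was more frequent in control-only regions than in the other sets near genes. Within 100 bp of the centre of the best-ranked peak, 76 of 595 regions held it (12.8%, Wilson interval 10.3% to 15.7%), against 6.20% (5.80% to 6.63%) of all regions near genes. Senescent-only regions had it in 4.74%, regions called in all 6 libraries in 4.41%, and regions called in a single control library in 8.34%. The 391 control-only regions beyond 50000 bp had it in 17.4%. Flanking windows, equally wide and 2000 bp away, held it in 5.63% around control-only regions, a ratio of 2.27 between peak and flank. A rearranged pattern of the same bases (GTTGTGT) was found in 2.69% of control-only regions and 2.29% of all regions.

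The E-box was less frequent in control-only regions than in the sets called in senescent libraries. It lay in 41 of 595 control-only regions (6.89%, 5.12% to 9.21%), against 17.2% of all regions, 36.9% of senescent-only regions and 43.8% of regions called in all 6 libraries. Regions called in a single control library held it less often, in 4.55% (3.91% to 5.28%). Without control replicate 3 the share in control-only regions was 10.4%. The 6.89% was above the flanking windows, where it was found in 3.11%. The AP-1 motif lay in 74 control-only regions (12.4%, 10.0% to 15.3%), against 14.2% of all regions and 20.4% of senescent-only regions, with 3.53% in the flanks. It lay in 11.5% of regions called in a single control library and in 8.81% of those called in all 6. RUNX, AP-1 or the E-box was present in 172 regions (28.9%), against 34.1% of all regions. RUNX and AP-1 lay together in 10 control-only regions (1.68%, against 1.07% of all regions). RUNX and the E-box did so in 5 (0.84%, against 0.76%).

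Among motifs of other factors, the C/EBP pattern TTGCNNAA lay in 15.3% of control-only and 9.43% of all regions, and the TEAD motif ACATTCC, read by the partners of YAP, in 8.07% and 5.44%. The NFAT motif TTTTCCA was at 8.07% and 5.44%, with 6.55% in the flanks of control-only regions. The glucocorticoid receptor half-site pair ACANNNTGT, of interest because all cells had dexamethasone, was at 7.56% and 4.75%, with 6.22% in the flanks. It lay in 13.5% (Wilson interval 8.98% to 19.7%) of the 156 regions called in all 3 control libraries. In the 439 called in 2 it was at 5.47% (3.70% to 8.01%). In regions called in a single control library it was at 5.48%, with 6.02% in their flanks. Over all control peaks near genes its mean share was 4.74%, with 6.21% in the flanks. The ETS motif CCGGAAG (2.86% against 6.58%) and the CTCF motifs AGGGGGC and AGATGGC (6.39% against 10.4%) were less frequent in control-only regions than in all regions. The SOX motifs CCATTGT and CCTTTGT were at 6.72% and 4.89%, the NF-Y motif (CCAATCA or CCAATCG or CCAATGA or CCAATGG) at 13.4% and 15.4%, the E-box variant CACGTT at 3.53% and 6.05%, CAGCTG at 9.75% and 12.0%, and the palindromic NFI motif, present in 2 regions, at 0.34% and 0.99%. Regions called in a single control library held C/EBP in 11.7%, TEAD in 6.49%, NFAT in 8.37% and SOX in 6.04%. Control-only regions beyond 50000 bp held C/EBP in 17.1%, TEAD in 9.46%, NFAT in 9.97% and SOX in 7.67%. All patterns were searched on both strands as exact letters. None of 14 patterns (the rearranged one left out) was found in 149 control-only regions within 50000 bp (25.0%), against 26.0% of all regions. TGTGGTT can share bases with the other patterns, and a match is a description of letters, not proof of a bound site.

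**Figure D2:**
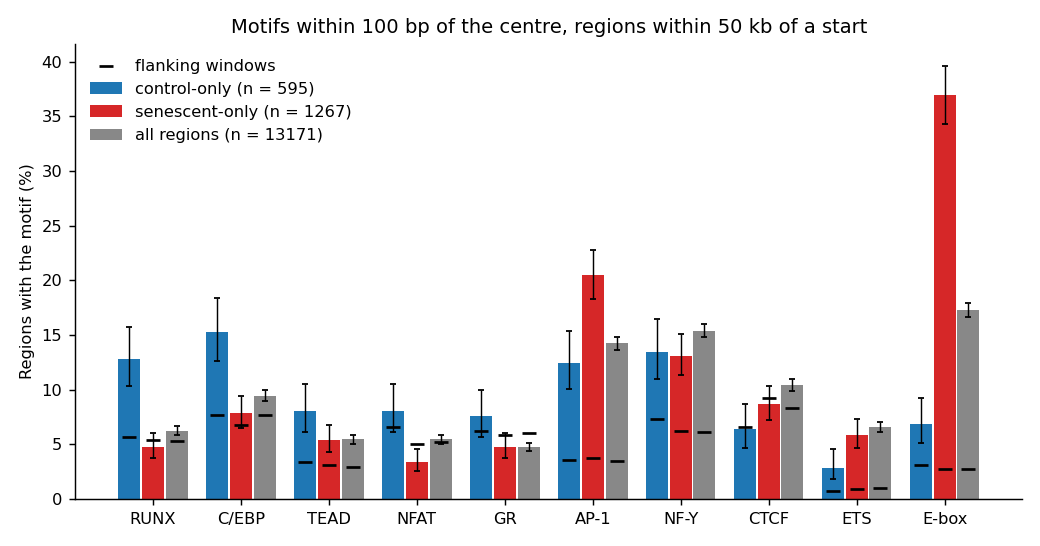
Bars give the percent of regions within 50 kb of a start that hold each motif within 100 bp of the centre, for control-only, senescent-only and all regions, with 95% Wilson intervals, and black dashes give the flanking windows 2000 bp away. RUNX is at 12.8% in control-only regions against 4.74% in senescent-only regions, and the E-box is at 6.89% against 36.9%.

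In control-only regions RUNX, AP-1 and the E-box were more frequent near the peak centres than more than 300 bp away. In bins of 50 bp, control-only regions held the RUNX motif at 3.61% per bin within 50 bp of the centre and in 1.51% per bin more than 300 bp away, a ratio of 2.39. The same ratio was 1.45 in senescent-only regions and 1.30 in regions called in all 6 libraries. For AP-1 the ratio was 5.12 in control-only and 7.88 in senescent-only regions, and for the E-box it was 5.52 and 11.5.

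**Figure D3:**
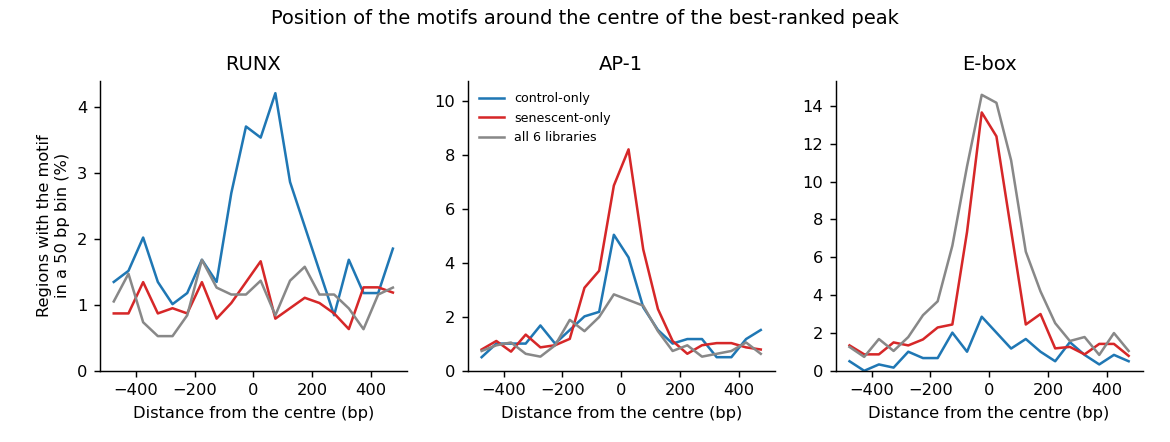
Lines give the percent of regions with the motif in each bin of 50 bp, by distance from the centre of the best-ranked peak, for control-only, senescent-only and all-6-library regions within 50 kb of a start. RUNX forms a central rise in control-only regions, with a ratio of centre to edge of 2.39 against 1.45 and 1.30 in the other sets, whereas the E-box rise is highest in the sets called in senescent libraries.

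To ask whether these contents held in each control library, peaks of control-only regions were compared with all other peaks within 50000 bp of a start in the same list. The RUNX motif lay in 13.1% and 6.34% of these peaks in replicate 1, in 13.3% and 6.21% in replicate 2, and in 13.4% and 6.36% in replicate 3. The E-box lay in 11.3% of control-only and 36.0% of other peaks in replicate 1, in 6.52% and 29.1% in replicate 2, and in 7.60% and 15.1% in replicate 3. AP-1 lay in 11.3% and 10.2%, 15.0% and 10.6%, and 12.2% and 11.0%, and promoters held 12.5% and 46.1%, 17.8% and 46.8%, and 15.9% and 43.1%. Each of the 4 measures kept its direction in 3 of 3 libraries. The mean difference was 6.96 ± 0.13 percentage points for RUNX, -18.3 ± 9.39 for the E-box, 2.25 ± 1.88 for AP-1 and -29.9 ± 3.30 for promoters (SD, n = 3). With 3 libraries an exact two-sided sign-flip permutation test cannot give a p below 0.25, which was the value for each (adjusted p = 0.25 over 4 measures). The libraries also share most of these regions and are not independent samples of regions.

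Rank and position were also held within limits. Among peaks in the weaker 50% of each list, the RUNX difference was 5.66, 6.87 and 9.90 points in replicates 1, 2 and 3, and in the better 50% it was 9.41, 6.18 and 5.79. Among peaks more than 1000 bp from a start it was 4.67, 5.73 and 5.60 points. The AP-1 difference did not keep its direction away from promoters, where it was -2.78, 1.90 and -2.48 points. The E-box difference in the weaker 50% of replicate 3 was -0.70 points (9.55% against 10.2%), while it was -19.1 and -14.5 in replicates 1 and 2. The lower G and C content of control-only regions was not held fixed in these comparisons, and its part in them was not tested.

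**Figure D4:**
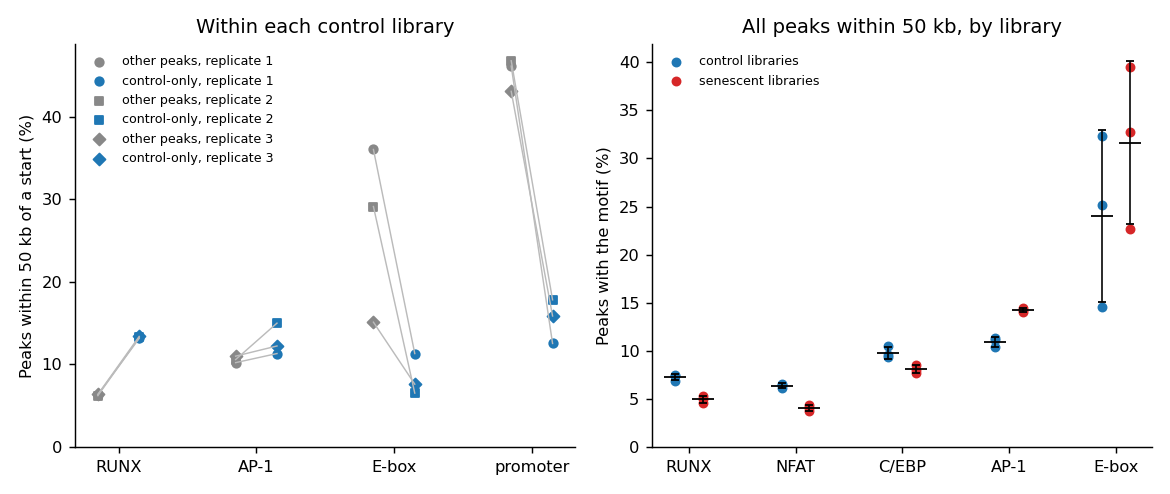
Left, the percent of peaks with a motif or at a promoter in each control library, for other peaks and for peaks of control-only regions, joined by a line per library. RUNX rises from about 6.3% to 13.1% or more in each library and promoters fall. Right, the percent of all peaks within 50 kb of a start that hold a motif, by library, with mean and SD (n = 3 per group), where RUNX, NFAT and C/EBP are higher in the control libraries, AP-1 is higher in the senescent libraries, and the E-box values overlap, which they did not with lists cut to equal length.

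Since the control-only rule picks on the calls, all peaks within 50000 bp of a start were also compared between the groups without it. The RUNX motif lay in 7.37%, 7.44% and 6.88% of such peaks in control replicates 1, 2 and 3 and in 5.26%, 4.58% and 4.98% in senescent replicates 1, 2 and 3. The means were 7.23% ± 0.31 and 4.94% ± 0.34 (SD, n = 3), a difference of -2.29 points with no overlap (exact permutation over libraries, two-sided p = 0.1, and adjusted p = 0.136 over 15 motifs). The flanks stood at 5.40% and 5.27%. AP-1 stood at 10.9% ± 0.51 for control and at 14.2% ± 0.24 for senescent cells (SD, n = 3, exact permutation p = 0.1, adjusted p = 0.136). The E-box was at 24.0% ± 8.93 and 31.6% ± 8.45 (SD, n = 3), and the groups overlapped (exact permutation p = 0.4, adjusted p = 0.429). With lists cut to equal length the E-box difference was 13.95 points and the groups did not overlap (exact permutation p = 0.1), and without control replicate 3 it was 2.89 points. It was 3.70 points without senescent replicate 1, 11.8 without control replicate 1 and 12.1 without senescent replicate 2. NFAT (6.36% ± 0.26 and 4.01% ± 0.31) and C/EBP (9.81% ± 0.63 and 8.08% ± 0.42) were higher in control libraries without overlap (SD, n = 3). The groups did not overlap for 11 of 15 motifs (73.3%), so a lack of overlap was usual in this panel. A p of 0.1 is the smallest that 3 against 3 libraries allow, and it measures the spread between these libraries only. Regions of the control-only set are among the peaks compared, so this is not separate evidence.

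The best-ranked control-only region lay at Wwp2, a ubiquitin ligase gene strongly expressed in cartilage. It spanned chr8:107522003-107522834 in an intron and held an E-box. Its rank was 64 of 2794 peaks in control replicate 1, 222.5 of 3349 in replicate 2 and 130 of 10601 in replicate 3, and the nearest senescent peak was 18871 bp away. It was far ahead of the next region in mean rank, 3.39% against 9.31%. That next region was nearest to the start of Ghdc but lay in an intron of Stat5b, a cytokine-activated transcription factor (chr11:100791492-100791837), with ranks of 317.5, 471 and 264.

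The other regions among the 10 best called in all 3 control libraries lay at genes of varied function. Cd9, a tetraspanin of the cell surface, had an intergenic region 38735 bp downstream of its start with a TEAD motif, at 15.6%, 10.3% and 5.10% of the lists of replicates 1, 2 and 3. The region nearest to the mitotic kinase gene Nek9 lay in a coding exon of Tmed10, which serves vesicle transport. Dbi encodes an acyl-CoA binding protein, and its intronic region with an E-box ranked at 19.9%, 13.7% and 4.19%. Ppp1r1b, an inhibitor of protein phosphatase, had the best-ranked promoter region, 651 bp upstream of its start, with none of the patterns. Acta2, the smooth muscle actin of contractile fibroblasts, had an intergenic region 10271 bp upstream with an AP-1 motif, at 21.05%, 19.6% and 10.6%. Degs1, which makes ceramide, had one 26606 bp downstream of its start with AP-1 and NFAT motifs. Cmah, a sialic acid hydroxylase, and Tgtp1, an interferon-induced GTPase, had regions with a RUNX motif. In all 10 the peak of control replicate 3 stood within the best 15.1% of its list.

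Regions with a RUNX motif that followed these 2 were at Swap70 and Col11a1. Swap70 acts on the actin cytoskeleton, and its intronic region (chr7:110247892-110248156) also held a TEAD motif and ranked at 20.3%, 53.2% and 7.87%. Col11a1, a fibrillar collagen of cartilage, had an intergenic region 2178 bp upstream (chr3:114028151-114028573) that was called in control replicates 1 and 3 at 38.2% and 16.4%, with the nearest senescent peak 999533 bp away. The next regions with an E-box lay at 4930558K02Rik, in an intron of Dnm3, and in an intron of Sept9, a septin, and the Sept9 region held AP-1 as well. Ttyh2, of a chloride channel family, came next among AP-1 regions. After Ppp1r1b the best promoter regions were at Hsd11b1, which reactivates glucocorticoid hormones, at the histone gene Hist1h3f and at Nlk, a kinase of Wnt signalling. The Hist1h3f region had a senescent peak 584 bp away.

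Promoter regions differed in motifs from the rest of the set. Among the 99, the NF-Y motif lay in 39 (39.4%, Wilson interval 30.3% to 49.2%), against 24.1% of all promoter regions. RUNX lay in 8 (8.08%, 4.15% to 15.1%) against 2.84%, ETS in 14 (14.1%) against 12.9%, and the E-box in 3 (3.03%, 1.04% to 8.53%) against 19.5%. Away from promoters, RUNX lay in 68 of 496 regions (13.7%) against 8.77% of all such regions, and AP-1 in 72 (14.5%) against 21.4%.

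The 595 regions were nearest to 501 genes, which is 7.07% of the 7084 genes with any region. There were 63 genes with at least 2 control-only regions and 13 with at least 3. Wwp2 had 14, Lox 8, and Gm10282 and Timp3 4 each, and the other 9 genes had 3. Lox encodes the enzyme that cross-links collagen and elastin, and Timp3 an inhibitor of matrix proteases. At Wwp2 the 14 regions spanned 90364 bp (chr8:107468900-107559263), and 12 lay in introns. Of 38 regions assigned to the gene, 34 had calls in control libraries alone, and 18 of these were called in control replicate 3 only. Control replicates 1, 2 and 3 called 9, 16 and 35 regions there, and senescent replicates 1, 2 and 3 called 2, 3 and 1. A single region, 124410 bp from the first start of the gene, was called in all 6 libraries, at 16.2%, 5.08% and 3.76% of the control lists and 58.7%, 70.1% and 79.5% of the senescent lists. No RUNX or AP-1 motif was found in the 14 regions, and 1 held an E-box.

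**Figure D5:**
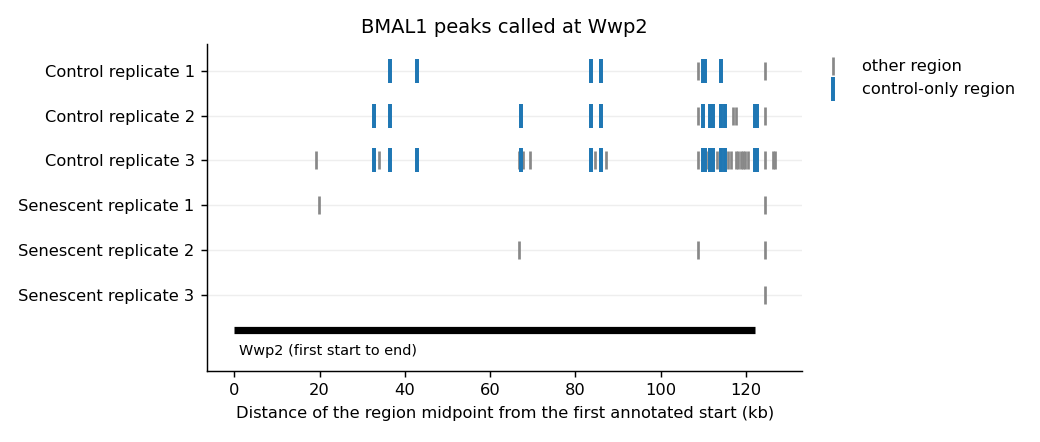
Ticks mark the midpoints of BMAL1 regions assigned to Wwp2 in each library, by distance in kb from the first annotated start, with control-only regions in blue, other regions in grey and the gene as a black bar. Control replicates 1, 2 and 3 call 9, 16 and 35 regions and the senescent libraries, in the same order, 2, 3 and 1. The calls of control replicate 3 crowd toward the end of the gene. Regions with senescent calls lie 19972, 66746, 108729 and 124410 bp from the first start.

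Control replicate 3 also made most of the calls at Lox and Timp3. At Lox, control replicates 1, 2 and 3 called 8, 11 and 26 of 27 regions, and in the senescent lists, in the same order, 1, 4 and 1 were called. At Timp3 they called 3, 11 and 30 of 36 regions, against 3, 9 and 2 in the senescent lists, and 7 regions were shared between the groups. Gm10282 had 4 regions, all control-only, of which control replicates 1, 2 and 3 called 1, 4 and 4. Counting only the best-ranked region of each gene left 501 regions, with RUNX in 13.4% and the E-box in 8.18%.

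Lists of pathway genes were set beside the 7.07% of genes that held a control-only region and the 16.3% that held a senescent-only one. A gene counted when any of its regions was of that kind, and the number of regions per gene was not held fixed. Of 27 collagen genes with any region, 6 (22.2%) held a control-only region: Col2a1, Col3a1, Col5a2, Col8a1, Col9a3 and Col11a1. Col2a1, Col9a3 and Col11a1 build cartilage fibrils, and Col3a1 and Col5a2 the fibrils of skin. The Col3a1 region lay in an intron 1330 bp from the start, at 62.7% of control replicate 1 and 56.8% of replicate 3. Senescent-only regions lay at Col19a1, Col2a1 and Col5a1. The study named 5 genes for decreased BMAL1 binding in senescent cells, a list chosen on these samples and so not independent evidence. Of the 4 with any region, Col2a1 and Col11a1 held control-only regions. The study compared binding by a differential analysis and not by presence of calls, so the 2 measures are not alike. Of the RUNX and chondrogenic SOX genes, 0 of 7 held a control-only region and 0 of 7 a senescent-only one. With 7 genes, beside a share of 7.07% over all genes, this count says little.

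The TGF-beta and BMP list had 2 of 32 genes with a control-only region (Acvr1b, an activin receptor, and Inhbb, an activin subunit), while 14 of 32 held a senescent-only region. The clock list had 1 of 16, the repressor Cry2, whose intronic region ranked at 87.6%, 98.6% and 54.3%. Regions called in all 6 libraries lay at 14 of these 16 clock genes. The cell cycle list had 3 of 20. Top2a, a topoisomerase of dividing cells, and E2f3, an activator of S phase genes, had regions within 141 bp of their starts with NF-Y motifs, and Cdkn1b, a CDK inhibitor, had a region 25789 bp from its start. The Wnt list had 2 of 24 (Wnt16, a ligand, and Fzd1, a receptor), and both regions held a RUNX motif.

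The remaining lists held a control-only region at 1 gene each. These were Atf3 among 8 AP-1 subunits, Amotl2, a YAP regulator, among 12 TEAD and YAP genes, and Fgf7 among 13 genes of FGF and PDGF signalling. They were also Timp3 among 12 matrix proteases and inhibitors, Foxf1 among 16 mesenchymal transcription factors, and Sgk1, a kinase, among 10 glucocorticoid-induced genes. The Sgk1 region ranked at 93.9% and 97.8% in control replicates 2 and 3. The Foxf1 region held an E-box and ranked at 19.4%, 62.6% and 21.3%. Senescent-only regions lay at 4 of the 8 AP-1 genes, 6 of the 12 TEAD and YAP genes and 6 of the 10 glucocorticoid-induced genes, Atf3, Amotl2 and Sgk1 among them. They lay at 3 of the 13 FGF and PDGF genes, 2 of the 12 proteases and inhibitors and 2 of the 16 mesenchymal factors, and, of the lists above, at 5 of 20 cell cycle, 3 of 24 Wnt and 1 of 16 clock genes. Of the 501 genes with a control-only region, 53 (10.6%) also held a senescent-only region, against 16.3% of all genes with any region. These 53 were 4.59% of the 1155 genes with a senescent-only region, against 7.07% of all.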

How the data were processed

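BMAL1-ChIP-seq peak lists of 3 control and 3 senescent MAF libraries were analysed, and the 6 input libraries were not used here. The authors mapped paired reads to mm10 with BWA, removed duplicates with Picard and called peaks with MACS2 in each library at an FDR of 1% or less. The deposited score was read from its values as the −log10 of the q-value (smallest score 2.02), and it ranks peaks within a list only, because it grows with depth. Whether input served as control is not given in the sources used here, and labels and methods name different BMAL1 antibodies. All 6 file headers name the same lane.

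Peaks were merged with Python 3.11.15 and pandas 2.3.3. Motifs were read with pysam 0.24.0 from GRCm38 within 100 bp of the centre of the best-ranked peak. Start sites came from GENCODE M21 (21840 protein-coding genes). The merging, motif search and nearest start were checked on simulated data. Tests were exact permutation tests (scipy 1.17.1) with Benjamini-Hochberg adjustment. Members, motifs and gene lists were chosen with earlier results of these data known. Regions named were the 10 best by mean rank in 3 of 3 control libraries, the 4 best with each main motif or at promoters, genes with most members, and list genes.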

Additional observations from a re-analysis of the deposited data

How the results depend on the processing

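The number of control-only regions and their motif shares depend on the lists. Peaks above the median score gave 286 regions, with the E-box in 10.8%, RUNX in 9.79% and promoters in 21.7%. Lists cut to equal length gave 511 regions with 9.59%, 9.59% and 27.0%, and these overlapped 263 of the original regions. In both, RUNX was above its share in the other regions near genes (6.04% and 6.07%) and the E-box below (23.8% and 29.9%). Requiring 3 of 3 control libraries gave 156 regions and 10.9% promoters, and a distance of 20000 bp gave 386 regions with the E-box in 4.92% and promoters in 25.6%. Within 50 bp of the centre the E-box, AP-1 and RUNX shares were 4.71%, 8.74% and 6.89%, anywhere in the region 11.3%, 18.5% and 21.01%, and after subtraction of the flanks 3.78%, 8.91% and 7.14%, as narrower or wider windows must move them. A promoter distance of 3000 bp gave 28.1%. Leaving out each library in turn gave 173 (without control replicate 3) to 874 (without senescent replicate 2) regions, and 307 without control replicate 2. The E-box share then ranged from 5.96% to 10.4%, AP-1 from 11.7% to 13.3%, RUNX from 10.8% to 13.3% and promoters from 12.1% to 26.1%. Requiring 50% of the shorter peak to be shared gave 559 regions, and regions with no senescent peak within 1000 bp numbered 525 with RUNX in 13.3%. This last alternative, the split by rank, the limit to peaks more than 1000 bp from a start and the best region per gene were chosen after seeing the data.

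Within control libraries, the AP-1 difference reversed to -1.12 points among peaks more than 1000 bp from a start, and the cause was not tested. The RUNX, E-box and promoter differences kept their direction in every alternative run. Between the groups no difference changed direction. At equal list lengths the E-box difference was 13.95 points without overlap (exact permutation p = 0.1).

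Groups share replicate numbers. Deviations of calls from the group mean correlated at 0.077, -0.14 and -0.11 between same-numbered libraries (7452 regions). Between other-numbered libraries they ranged from -0.15 to 0.27. The largest value was between control replicate 3 and senescent replicate 2, the longest lists of their groups. List length was not held fixed, so these values cannot show whether the numbers pair the libraries. With a replicate block the differences were 7.62 points for the E-box, 3.28 for AP-1 and -2.29 for RUNX (exact sign-flip p = 0.5, 0.25 and 0.25, n = 3 pairs). Depth is unknown, and no list can show that BMAL1 was absent from a region.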

Other observations

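Other gene groups were noticed in the list of control-only regions after its values were seen, so their counts are descriptions and were not tested. Over all genes with any region, 7.07% held a control-only and 16.3% a senescent-only region. A gene counted when any of its regions was of that kind, and the number of regions per gene was not held fixed. Some genes of these groups had many regions. Control-only were 3 of 18 regions at Tpm1, 8 of 27 at Lox, 4 of 36 at Timp3 and 14 of 38 at Wwp2, against 4.52% of all regions near genes. Of 28 actin cytoskeleton and serum response factor target genes with any region, 14 held a control-only region, among them Acta2, Vcl, Tpm1 and Srf, and 5 held a senescent-only region. Of 26 genes of elastic and interstitial fibre matrix, 14 did, among them Lox, Fn1, Bgn and Fbln5, and 3 held a senescent-only region. Of 21 cartilage genes, 11 did, among them Acan, which encodes the main cartilage proteoglycan, Col2a1, Hapln1 and Wwp2, and 2 held a senescent-only region. Regions called in all 6 libraries lay at 8 of the 28 actin genes, 3 of the 26 matrix genes and 1 of the 21 cartilage genes. For the best-ranked control-only regions at Csrp1 (also of the actin list), Tpm1 and Acta2, the nearest senescent peak lay 0, 586 and 10440 bp away. The Acan region, 32083 bp upstream, was called in control replicates 1, 2 and 3 at 78.7%, 62.6% and 11.0% of the lists.

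Of 23 genes of mitosis and DNA replication, 8 held a control-only region and 0 a senescent-only one. Their regions at Prc1, Hmgb2 and Top2a lay within 200 bp upstream of a start, and those of Hmgb2 and Top2a held NF-Y motifs. Of 41 replication-dependent histone genes, 7 held 9 control-only regions and 0 a senescent-only one. Regions called in all 6 libraries lay at 2 of the 23 mitosis and replication genes and at 3 of the 41 histone genes. A senescent peak lay 210 bp from the control-only region at Hist1h2bm and 584 bp from that at Hist1h3f. At Hist1h2ag, Hist1h3e and Hist1h2bm the region lay within 221 bp of the start with an NF-Y motif. The Cdc20 region, at a gene needed for chromosome separation, stood at 89.1% of control replicate 2 and 7.24% of replicate 3. These groups share members with the collagen and cell cycle lists.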
